A study of Mus musculus with 20 samples.

Results

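The colony-stimulating factor axis genes are Csf1, Il34, Csf2 and Csf3, which encode secreted ligands, and Csf1r, Csf2ra and Csf2rb, which encode receptor chains. They were taken by gene name, 7 of the 54532 genes in the deposited count tables, and every one was found in both tables. RNA was sequenced in bulk from livers of WT mice with and without colorectal liver metastases (CRLM), which were induced by injecting 1000000 cells of the mouse colon carcinoma line Mc38. The normal liver after normal saline at day 0 (con) had 2 libraries, and tumor-free liver remote from the metastases at 12 days post injection (dpi) (L-con) had 1. At 9 dpi, low-content tumor (Lt) and medium-content tumor (Mt3) were taken, with 2 libraries of each, as of the medium-content groups Mt2 and Mt1 at 11 dpi, and high-content tumor (Ht) at 12 dpi had 3. Cells selected with microbeads for F4/80 (F4/80+TAM) or CD11b (CD11b+TAM) had 3 libraries each, labelled as from medium-content tumor at day 11, which the Methods name as Mt2. All 20 libraries are labelled WT, and the Methods give C57BL/6 mice aged 6 to 8 weeks. Lt and Mt3 share day 9, but Lt, Mt and Ht differ in day as well as in tumor content, so the parts of both in the comparisons of Lt or Mt with Ht cannot be told apart.

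Csf1 is the growth and survival factor of monocytes and macrophages, and Il34 is a second ligand of the same receptor, the tyrosine kinase Csf1r, which is a hallmark of the mononuclear phagocyte lineage. Csf2 (GM-CSF) acts through a ligand-binding chain, Csf2ra, and a signaling chain, Csf2rb, which is shared with the receptors for Il3 and Il5. Csf3 (G-CSF) drives the production of neutrophils through Csf3r. In the liver the resident macrophages, the Kupffer cells, depend on signals through Csf1r.

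The tissue libraries held 16032085 to 18246623 counts and the sorted-cell libraries 17785496 to 20548370. Levels are given as FPKM, counts scaled for gene length and for library size after TMM scaling over all libraries, which allows genes to be compared. Orders and overlaps of groups are given on this scale, and some differ under total-count scaling. The Methods call Ht_1 and Ht_3 identical, and their counts were summed to 1 sample, although they differed by more than sampling noise (the chi-square per degree of freedom was 27.6, against 26.7 for Ht_1 and Ht_2 and 12.1 for Ht_2 and Ht_3, so that Ht_3 was nearer to Ht_2 than to the library it was summed with). The Methods give 2 livers per tissue group other than L-con, whereas nothing says whether the sorted libraries came from separate animals, so p-values measure only the spread between these samples, which may be technical. The labels give male mice for the tissue series and the Methods female. Ddx3y, a Y-linked gene, had 348 to 1421 counts in the tissue libraries and 0 in the sorted cells, and Xist had 0 to 3 and 5547 to 21805, so that the sorted cells did not come from the animals of the tissue libraries, and the parts of sex and isolation in any difference between them cannot be told apart.

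In GRCm38, Csf1 (ENSMUSG00000014599) lies on the minus strand at chr3:107741048-107760469 and Csf2ra (ENSMUSG00000059326) on the minus strand at chr19:61224402-61228418. Csf2rb (ENSMUSG00000071713) lies at chr15:78325752-78353847, Il34 (ENSMUSG00000031750) at chr8:110741829-110805924, Csf2 (ENSMUSG00000018916) at chr11:54247271-54249667 and Csf3 (ENSMUSG00000038067) at chr11:98701263-98703629. No 50-base stretch of the annotated Csf1, Csf2ra or Csf3 transcripts occurs in another gene. Of the 50-base stretches of Csf2rb, 12.3% also occur elsewhere, almost all of them in its paralog Csf2rb2, and exons of Hmgxb3 on the other strand cover 15.1% of the exon bases of Csf1r. The library kit does not mark strand, so reads of these overlaps could have been split or assigned to either gene, and the levels of Csf2rb and Csf1r are uncertain by that share. For Csf1r the share is that of the reference, with 5774 exon bases, whereas the deposited length is 4885, so it may differ for the deposited counts.

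The promoters of Csf1 and Csf2ra are shown because Csf1 was the ligand with the largest change from con to Ht and Csf2ra the receptor gene with the largest difference between sorted cells and tissue. Of the 7 genes, 3 had an entry in the RefSeq promoter table (GRCm38.p6), Csf1, Csf2 and Csf2ra. Each sequence holds the 250 bases before the annotated start, 5′ to 3′ along the gene, with matches to the motifs searched in capitals.
Csf1, chr3:107760470-107760719, minus strand: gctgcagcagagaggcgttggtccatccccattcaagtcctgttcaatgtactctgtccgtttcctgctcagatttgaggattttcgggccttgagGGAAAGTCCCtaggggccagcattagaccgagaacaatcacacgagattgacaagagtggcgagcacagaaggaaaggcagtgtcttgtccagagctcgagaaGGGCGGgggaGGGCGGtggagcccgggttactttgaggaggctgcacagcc
Csf2ra, chr19:61228419-61228668, minus strand: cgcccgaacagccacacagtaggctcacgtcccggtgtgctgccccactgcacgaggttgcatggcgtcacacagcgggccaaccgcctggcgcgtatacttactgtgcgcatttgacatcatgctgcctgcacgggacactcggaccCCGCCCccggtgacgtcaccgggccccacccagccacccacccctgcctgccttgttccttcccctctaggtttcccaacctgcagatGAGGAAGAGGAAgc
The motifs, searched on both strands, were GAGGAA (the core bound by PU.1), TGANTCA (AP-1), the NF-kB motif, TTCNNNGAA (STAT) and GGGCGG (the GC box). The Csf2ra window held GAGGAA at 14 and again at 8 bases before the start, a motif present in 23.3% of the 32841 promoter windows of the same length, and 1 GC box. The Csf1 window held no GAGGAA. It held 1 NF-kB match, which 1.41% of windows have, and 2 GC boxes, a motif that 32.7% of windows hold at least once. No AP-1 or STAT match lay in either window (6.75% and 7.02% of windows have them). PU.1 is encoded by Spi1, the myeloid regulator whose own values follow with the lists around the axis. These matches are letters in the sequence, and binding was not measured.

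Csf1 had the largest log2 fold change of the tested genes of the axis from con to Lt, from con to Ht and from Lt to Ht. Its level was 1.44 FPKM in both con libraries and 2.98 in L-con. The Lt libraries had 7.60 and 16.7 FPKM and those of Mt3 11.1 and 14.1. At 11 dpi Mt2 reached 18.0 and 34.7 FPKM and Mt1 19.2 and 28.7. Ht held 34.4 (Ht_1 and Ht_3 summed) and 30.6 FPKM. Every metastasis sample thus lay above con and L-con, and the order of the groups was con, L-con, Lt, Mt3, Mt1, Mt2 and Ht, in which Lt overlapped Mt3, Mt1 overlapped Mt2 and Mt2 overlapped Ht. The log2 fold change was 3.08 from con to Lt (standard error, SE, 0.44, adjusted p = 0.00276 by the quasi-likelihood test of edgeR) and 4.48 from con to Ht (SE 0.47, adjusted p = 0.00013, edgeR). From Lt to Ht it was 1.40 (SE 0.41, adjusted p = 0.0218, edgeR). That call was lost without Lt_1, without the summed Ht_1 and Ht_3 or without Ht_2, with adjusted p of 0.132, 0.0874 and 0.0626 by the same edgeR test. From Mt (Mt1, Mt2 and Mt3 averaged) to Ht the value was 0.70 (SE 0.31, adjusted p = 0.125, edgeR), which did not pass the threshold. In bulk tissue, a larger number of Csf1-expressing cells and more Csf1 RNA per cell cannot be told apart.

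Markers of other cells moved in the same samples. The summed level of 4 genes specific to the tumor (Stra6, Flnc, Grem1 and Lgals7, a list taken from these data) was 0 in con, with all 4 genes at 0 counts, 7.10 FPKM in L-con, 34.7 to 78.3 in Lt and 174 to 205 in Ht. That of 11 mesenchymal markers went from 67.6 to 95.1 FPKM in con to 796 to 886 in Ht, with 7 of 11 called higher and 2 lower. That of 13 hepatocyte markers went from 100400 to 108100 in con to 2064 to 2934 in Ht, with 13 of 13 lower. The part of these shifts in the change of Csf1 was not tested.

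In the sorted cells, Csf1 was below the Mt2 tissue libraries. It was 3.84, 4.16 and 4.66 FPKM in F4/80+TAM and 7.13, 10.3 and 7.11 in CD11b+TAM, so the populations did not overlap each other or the Mt2 tissue. From Mt2 tissue the log2 fold change was -2.64 to F4/80+TAM (SE 0.33, adjusted p = 9.75e-06, edgeR) and -1.69 to CD11b+TAM (SE 0.32, adjusted p = 0.000423, edgeR). Without Mt2_2, the higher of the Mt2 libraries, these values were -2.05 and -1.10 (adjusted p = 0.000183 and 0.0162, edgeR). From CD11b+TAM to F4/80+TAM it was -1.01 (SE 0.19, adjusted p = 0.0922, edgeR), which was not called, whereas DESeq2 called it (adjusted p = 0.000643). Without CD11b+TAM_3, edgeR called it too (adjusted p = 0.0332), as it did with no filter (0.0174), and over all alternatives the adjusted p ran from 0.000643 to 0.406. Neutrophil markers also differed between the populations. The summed level of 9 of them was 22.8 to 450 FPKM in F4/80+TAM and 1054 to 5606 in CD11b+TAM, with 2 of 9 called lower in F4/80+TAM. Within F4/80+TAM the libraries had the same order for this sum and for Csf1. Within CD11b+TAM the order was reversed, with the highest sum in CD11b+TAM_3 (Csf1 7.11 FPKM) and the lowest in CD11b+TAM_2 (Csf1 10.3 FPKM). The part of the neutrophil markers was not tested.

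**Figure D1:**
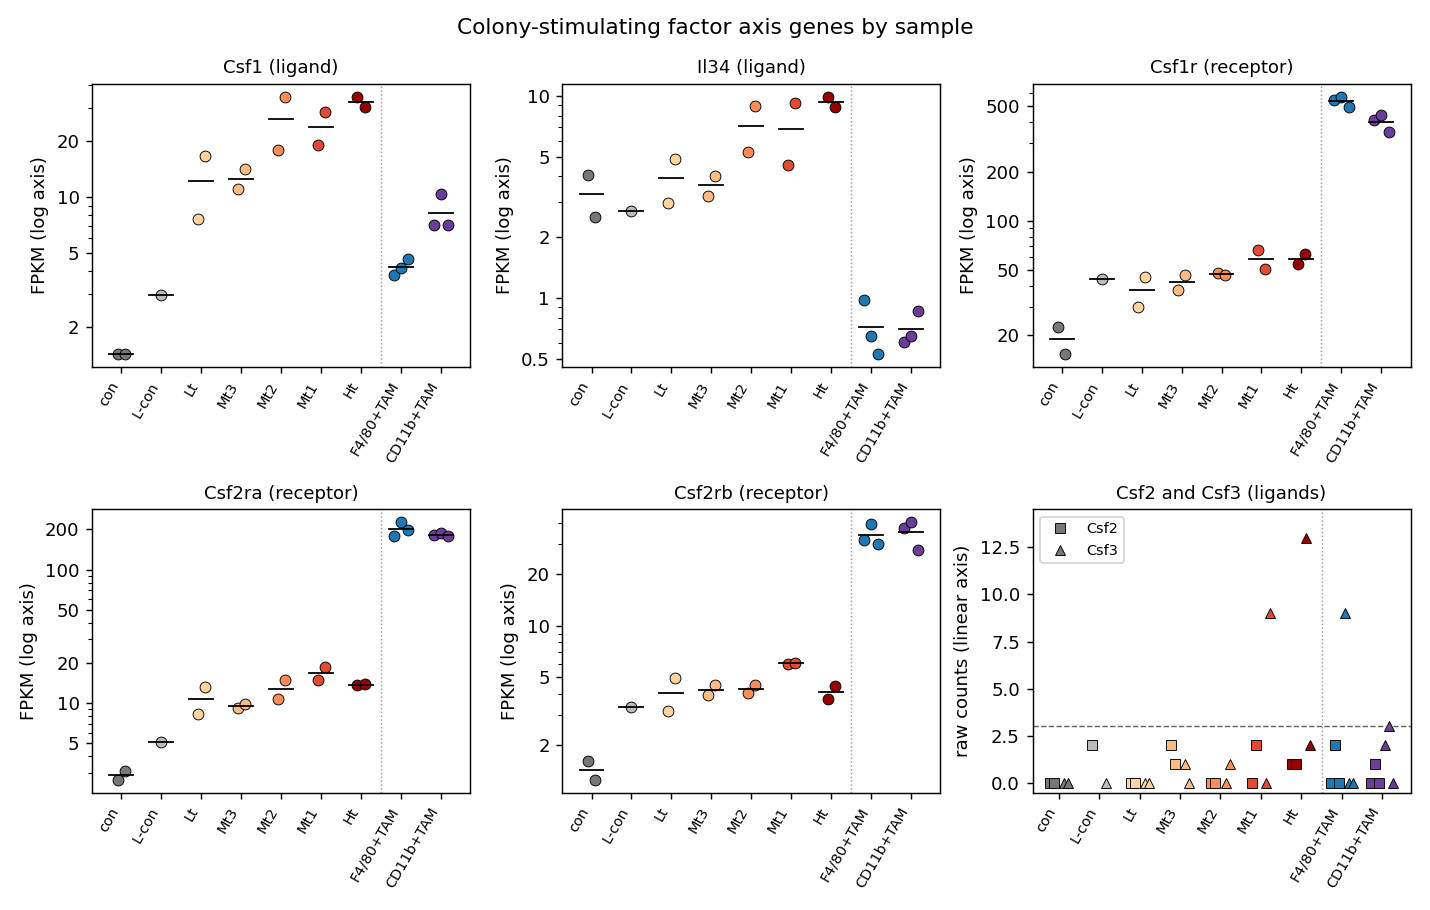
Level of each gene in FPKM (log axes) in the 13 tissue samples and 6 sorted-cell libraries, with raw counts (linear axis) for Csf2 and Csf3; points are samples, black bars group means, the dotted line separates tissue from sorted cells, and the dashed line marks the floor of 3 counts (Ht_1 and Ht_3 are summed, which gives 13 counts of Csf3). Ligands Csf1 and Il34 lie lower in sorted cells than in Mt2 tissue, at most 10.3 against at least 18.0 FPKM for Csf1, and the 3 receptor genes lie higher.

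Il34, the alternative ligand of Csf1r, was called higher in Ht than in con and in Lt, but not in Lt against con. Normal liver had 4.06 and 2.51 FPKM and L-con 2.69. At 9 dpi Lt had 2.97 and 4.87 FPKM and Mt3 3.19 and 4.04. Later samples reached 5.31 and 8.98 FPKM (Mt2), 4.58 and 9.24 (Mt1) and 9.96 and 8.80 (Ht). The groups at 9 dpi overlapped con, and Mt2 and Mt1 overlapped Ht on this scale. From con to Lt the log2 fold change was 0.26 (SE 0.43, adjusted p = 0.702, edgeR), and its direction turned without con_2 (-0.06) or without Lt_2 (-0.15). From con to Ht it was 1.50 (SE 0.42, adjusted p = 0.0119, edgeR), a call lost without con_2 (adjusted p = 0.0899, edgeR) or without the summed Ht_1 and Ht_3 (adjusted p = 0.052, edgeR). From Lt to Ht it was 1.23 (SE 0.41, adjusted p = 0.037, edgeR). This call was lost without Lt_1 (adjusted p = 0.213, edgeR), without the summed Ht_1 and Ht_3 (0.133) or without Ht_2 (0.0901). From Mt to Ht the value was 0.73 (SE 0.32, adjusted p = 0.116, edgeR).

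Sorted cells held little Il34. It had 21 to 38 counts in F4/80+TAM, 0.529 to 0.980 FPKM, and 25 to 30 counts in CD11b+TAM, 0.606 to 0.859 FPKM, against 5.31 and 8.98 FPKM in the Mt2 tissue. The log2 fold change from Mt2 tissue was -3.31 to F4/80+TAM (SE 0.38, adjusted p = 5.07e-06, edgeR) and -3.35 to CD11b+TAM (SE 0.38, adjusted p = 4.03e-06, edgeR). Between the sorted populations it was -0.01 (SE 0.37, adjusted p = 0.987, edgeR). Traces of other cells remained in both, with a summed mesenchymal marker level of 43.9 to 64.7 FPKM in F4/80+TAM and 22.1 to 39.0 in CD11b+TAM against 452 to 725 in Mt2 tissue, and of the tumor genes 11.3 to 15.6 and 7.65 to 12.5 against 84.9 to 167. All 11 mesenchymal and all 4 tumor genes were called lower in both sorted populations than in Mt2 tissue. The part of these traces in the ligand levels of the sorted cells was not tested.

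Csf2 and Csf3 were barely detected, and neither passed the filter for a test in any comparison. Csf2 had 9 counts over the 14 tissue libraries, never more than 2 in one library, and 3 counts over the 6 sorted-cell libraries. No library reached the floor of 3 counts, which corresponds to 0.146 to 0.187 CPM and covers counting error only, so a difference in Csf2 was not detectable at this depth. Csf3 had 26 counts over the 14 tissue libraries, of which 15 were in Ht (8, 2 and 5) and 9 in Mt1_2, with 0 counts in con, L-con and Lt. In the sorted cells F4/80+TAM_1 held 9 counts and the other F4/80+TAM libraries none, and CD11b+TAM held 2, 3 and 0. Every Csf3 level was at most 0.322 FPKM, and the libraries of one group differed as widely as the groups.

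Csf1r (ENSMUSG00000024621, on chromosome 18), the receptor of Csf1 and Il34, was the most abundant gene of the axis in every sample. The con libraries had 22.6 and 15.4 FPKM and L-con 44.2. At 9 dpi the libraries of Lt had 29.7 and 45.5 FPKM, and Mt3 had 37.7 and 46.4. Values of 48.1 and 46.9 FPKM followed in Mt2, 66.4 and 51.1 in Mt1, and finally 54.4 and 62.4 in Ht. Both con libraries lay below every other tissue sample, and L-con lay within the range of the metastases at 9 dpi. From con to Lt the log2 fold change was 0.99 (SE 0.29, adjusted p = 0.0485, edgeR), just under the fold threshold, and the gene was called with a minimum of 10 counts in every library (1.04), under total-count scaling (1.32) or without Lt_1 (1.25). It fell short with adjusted p of 0.343 without Lt_2 (0.64) and 0.26 without con_2 (0.72) in edgeR, and the adjusted p was also above 0.05 without con_1 (0.0601), with DESeq2 size factors (0.0562), with only the groups compared (0.0547) and with the replicate block (0.0565). From con to Ht it was 1.60 (SE 0.29, adjusted p = 0.0012, edgeR). From Lt to Ht (0.61, SE 0.28, adjusted p = 0.106, edgeR) and from Mt to Ht (0.25, SE 0.23, adjusted p = 0.425, edgeR) it was not called, although both Ht samples lay above both Lt libraries. Total-count scaling called it from Lt to Ht (1.47, adjusted p = 0.00603, edgeR).

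Csf1r was 11.3-fold higher in F4/80+TAM and 8.41-fold higher in CD11b+TAM than in Mt2 tissue. The F4/80+TAM libraries had 547, 574 and 496 FPKM, and those of CD11b+TAM 412, 441 and 346. The log2 fold change from Mt2 tissue was 3.50 to F4/80+TAM (SE 0.30, adjusted p = 4.43e-07, edgeR) and 3.07 to CD11b+TAM (SE 0.29, adjusted p = 8.13e-07, edgeR). All 3 F4/80+TAM libraries lay above all 3 CD11b+TAM libraries, but the difference of 0.38 (SE 0.18, adjusted p = 0.483, edgeR) was not called.

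Csf2ra, the ligand-binding chain of the GM-CSF receptor, was called higher in Lt and in Ht than in con. Its level in con was 2.67 and 3.12 FPKM, and L-con had 5.14. Lt libraries had 8.35 and 13.3 FPKM, Mt3 libraries 9.21 and 9.84, and Mt2 libraries 10.7 and 15.0. Mt1 reached 15.0 and 18.8 FPKM, whereas Ht had 13.7 and 13.8. All metastasis samples lay above con and L-con, and Ht lay within the range of Mt. The log2 fold change was 1.90 from con to Lt (SE 0.27, adjusted p = 0.0026, edgeR) and 2.23 from con to Ht (SE 0.27, adjusted p = 0.000207, edgeR). From Lt to Ht (0.32, SE 0.24, adjusted p = 0.302, edgeR) and from Mt to Ht (0.11, SE 0.20, adjusted p = 0.702, edgeR) the gene was not called, but under total-count scaling it was called from Lt to Ht (1.19, adjusted p = 0.0303, edgeR). Csf2ra was 178, 226 and 199 FPKM in F4/80+TAM and 181, 189 and 177 in CD11b+TAM, and these ranges overlapped. From Mt2 tissue its log2 fold change was 3.97 to F4/80+TAM (SE 0.25, adjusted p = 8.02e-08, edgeR) and 3.83 to CD11b+TAM (SE 0.25, adjusted p = 5.58e-08, edgeR), the largest among the tested genes of the axis in both comparisons.

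Csf2rb, the signaling chain, was called higher in Lt and in Ht than in con. Normal liver held 1.62 and 1.26 FPKM and L-con 3.35. Lt had 3.16 and 4.93 FPKM, and Mt3 had 3.94 and 4.50. Mt2 gave 4.05 and 4.51 FPKM, Mt1 gave 5.97 and 6.07, and Ht gave 3.75 and 4.45. Con lay below all other tissue samples, and Lt overlapped Ht. The place of Ht depended on the scaling, with group means of 4.04 in Lt, 6.02 in Mt1 and 4.10 in Ht that became 3.42, 7.21 and 6.20 FPKM under total-count scaling. The log2 fold change was 1.50 from con to Lt (SE 0.23, adjusted p = 0.00375, edgeR) and 1.49 from con to Ht (SE 0.23, adjusted p = 0.00059, edgeR). From Lt to Ht it was -0.003 (SE 0.22, adjusted p = 0.993, edgeR) and turned to 0.86 under total-count scaling, and from Mt to Ht it was -0.22 (SE 0.18, adjusted p = 0.383, edgeR) and turned to 0.32. In sorted cells Csf2rb was 31.9, 39.7 and 30.3 FPKM in F4/80+TAM and 37.5, 40.4 and 27.8 in CD11b+TAM, which overlapped. From Mt2 tissue the log2 fold change was 2.99 to F4/80+TAM (SE 0.25, adjusted p = 3.86e-07, edgeR) and 3.04 to CD11b+TAM (SE 0.25, adjusted p = 2.56e-07, edgeR).

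Counted together, 5 of the 7 genes could be tested, and the call required an adjusted p no higher than 0.05 together with a log2 fold change of 1 or more in either direction. From con to Lt, 3 of 5 were called higher (Csf1, Csf2ra and Csf2rb), where 12.4% of all genes tested were higher and 0.256% lower. From con to Ht all 5 were called higher, against 25.8% of all genes higher and 24.1% lower. In Ht against Lt the 2 ligands were higher and no receptor was called, against 11.7% higher and 20.2% lower, whereas under total-count scaling Csf1r and Csf2ra were called higher as well. From Mt to Ht none was called, against 1.5% higher and 13.4% lower, with Il34 alone at an unadjusted p under 0.05 (0.0452). DESeq2 called none there either, but edgeR with total-count scaling called Csf1 (1.21, adjusted p = 0.0397) and Il34 (1.24, adjusted p = 0.0381) higher. Between CD11b+TAM and F4/80+TAM none was called by edgeR with all 6 libraries and the filter on low counts, and DESeq2 called Csf1 lower in F4/80+TAM, while edgeR called 0.00701% of genes higher and 0.0701% lower, with Csf1 at an unadjusted p of 0.00078. From Mt2 tissue to F4/80+TAM the 3 receptor genes were higher and the 2 ligands lower, against 17.2% of genes higher and 25.2% lower, and from Mt2 tissue to CD11b+TAM the split was the same, against 17.6% and 26.3%. The 2 last comparisons share their tissue samples. The median log2 fold change of the 5 genes was 1.50 from con to Lt, beside 0.10 for all genes tested, and 1.60 from con to Ht, beside 0.09.

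**Figure D2:**
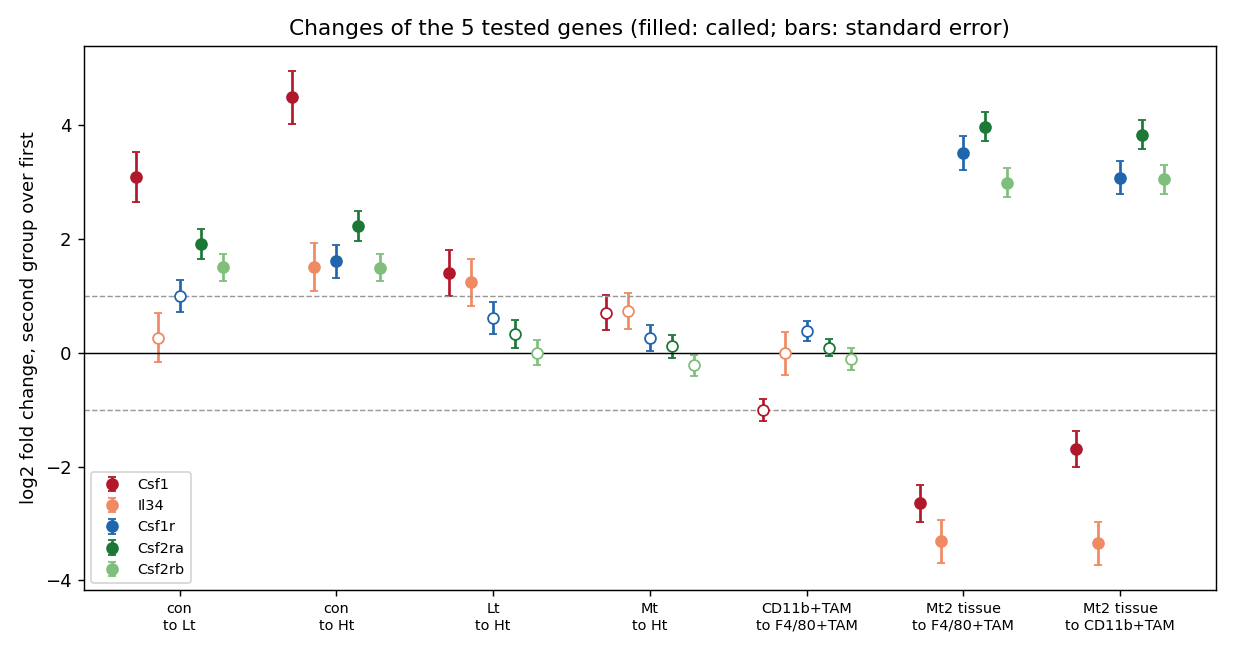
Log2 fold change (second group over first) of the 5 tested genes in the 7 comparisons, with standard errors as bars; filled points were called, open points were not, and dashed lines mark the threshold of 1. In the comparisons of sorted cells with Mt2 tissue both ligands lie below 0 and the 3 receptor genes above it, with Csf1 at -2.64 and Csf2ra at 3.97 in F4/80+TAM.

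The ratio of Csf1 to Csf1r in FPKM was 0.0637 and 0.0932 in con and 0.0673 in L-con. Lt had 0.255 and 0.367, and Mt3 had 0.294 and 0.303. Mt2 gave ratios of 0.374 and 0.741, Mt1 of 0.289 and 0.561, and Ht of 0.633 and 0.490. All metastasis samples lay above con and L-con, Lt and Mt3 overlapped Mt1, and both lay below Mt2. In the sorted cells it was 0.00701 to 0.00940 in F4/80+TAM and 0.0173 to 0.0235 in CD11b+TAM, without overlap. These ratios are given without a test.

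The ligand pair changed places between normal liver and metastasis. The ratio of Il34 to Csf1 was 2.83 and 1.75 in con, so Il34 was the more abundant ligand there, and 0.904 in L-con. In the metastasis samples it lay between 0.239 (Mt1_1) and 0.391 (Lt_1), with group means of 0.341 in Lt and 0.277 to 0.289 in the other 4 groups. Csf1 itself went from a mean of 12.6 ± 2.11 in Mt3 to 32.5 ± 2.70 FPKM in Ht (SD, n = 2 each). In the sorted cells the ratio was 0.113 to 0.255 in F4/80+TAM and 0.0627 to 0.121 in CD11b+TAM, where Il34 rests on at most 38 counts.

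Csf1r was also set against Adgre1, which encodes F4/80 and marks macrophages. Their ratio had group means from 1.38 (Mt2) to 1.63 (Mt3) over all tissue groups, with con at 1.56 and Ht at 1.39, and single samples ran from 1.23 to 1.64. Adgre1 went from 12.3 ± 3.93 FPKM in con to 42.3 ± 5.86 FPKM in Ht (SD, n = 2 each). In the sorted cells the ratio was 2.26 to 2.57 in F4/80+TAM and 2.05 to 2.67 in CD11b+TAM, above every tissue sample. F4/80 is the antigen of the first isolation, so Adgre1 in F4/80+TAM is not independent of the sorting. Adgre1 is 1 of 12 macrophage markers listed, of which 5 were called higher and none lower by edgeR from con to Lt (all genes, 12.4% and 0.256%), 6 higher and 2 lower from con to Ht (25.8% and 24.1%) and 2 higher and 4 lower from Lt to Ht (11.7% and 20.2%). From Mt to Ht none was higher and 4 were lower by edgeR (1.5% and 13.4%). From Mt2 tissue 9 were higher and none lower in F4/80+TAM (17.2% and 25.2%), and 8 higher and 4 lower in CD11b+TAM (17.6% and 26.3%). The ratio of Csf2ra to Csf2rb was 1.65 and 2.49 in con and 1.54 in L-con, 2.19 to 3.65 in the metastases and 4.68 to 6.57 in the sorted cells. The deposited length of Csf2ra is 1849 bases, whereas the reference annotates 2871 exon bases, so the level of Csf2ra against other genes would be lower with the latter, by the same factor in every sample. The same holds for Csf1r, with 4885 against 5774 bases, and so for its ratios.

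**Figure D3:**
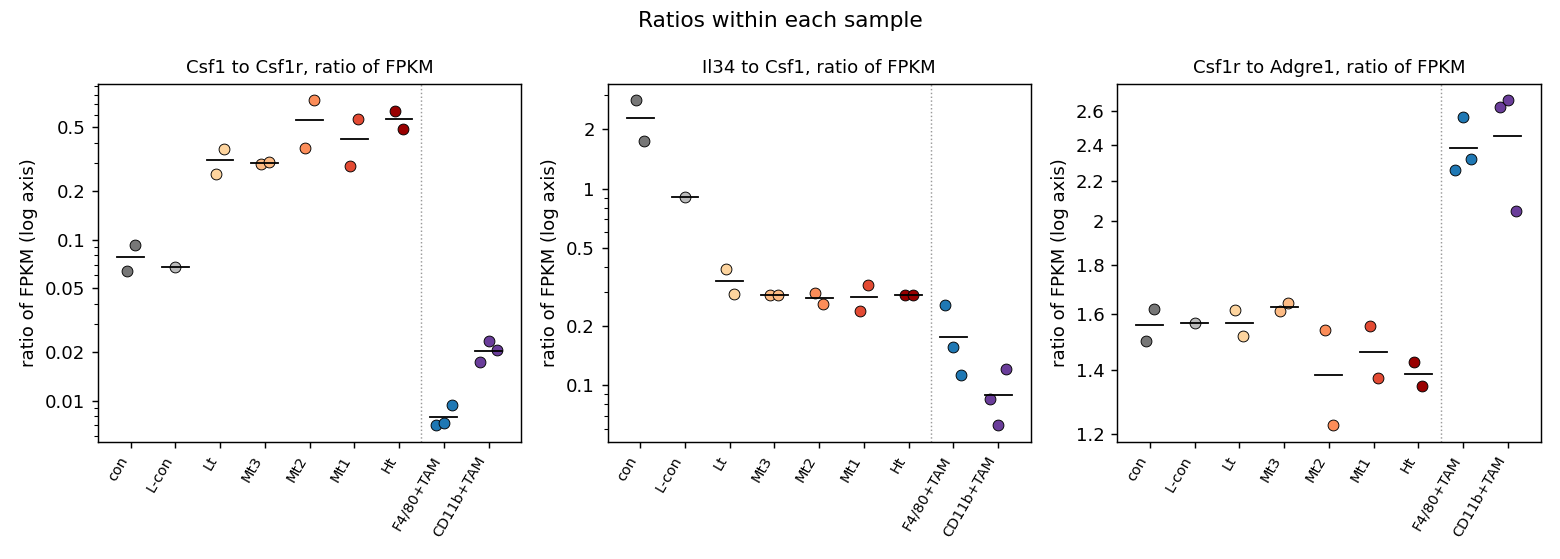
Ratios of FPKM within each sample (log axes) for Csf1 to Csf1r, Il34 to Csf1 and Csf1r to Adgre1; points are samples, black bars group means, and the dotted line separates tissue from sorted cells. Il34 to Csf1 falls from 2.83 and 1.75 in con to 0.239 to 0.391 in metastases, whereas Csf1r to Adgre1 stays between 1.23 and 1.64 in all tissue samples.

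Over the 13 tissue samples, the genes whose log2(CPM + 1) was most like each gene of the axis were named from 13827 genes. For Csf1 these were Mybl2, a cell cycle transcription factor, Map1a and Mthfd2, a mitochondrial folate enzyme, each with a Pearson r of 0.998 or more. For Csf1r they were Adgre1 (r = 0.984), Ptgs1 and March1. For Il34 they were Myl6b (r = 0.983), Prmt3 and Acot7. For Csf2ra they were Icosl (r = 0.988), Map4k1 and Il1rl1, and for Csf2rb Slc15a3 (r = 0.988), Abcg1 and Atp8a1. Within the axis, r was highest between Csf1 and Csf2ra (0.972) and lowest between Il34 and Csf2rb (0.533). The samples share the course from liver to tumor, so these values are descriptions without a p.

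Among related ligands and receptors, 8 of 12 listed genes could be tested. Csf3r, the G-CSF receptor, was called higher from con to Lt (log2 fold change 2.14) and from con to Ht (2.48), as was Csf2rb2, the paralog of Csf2rb (1.82 and 2.01). Kitl, the ligand of the receptor Kit, was higher from con to Ht (2.30) and from Lt to Ht (1.22), like Csf1 and Il34. It was also lower in both sorted populations than in Mt2 tissue, at -2.63 in F4/80+TAM. Csf3r was 40.1 to 54.3 FPKM in F4/80+TAM and 76.2 to 113 in CD11b+TAM, without overlap, at a log2 fold change of -0.95 that was not called (adjusted p = 0.146, edgeR). The summed level of the 9 neutrophil markers also differed between the populations, at 22.8 to 450 FPKM against 1054 to 5606. Within CD11b+TAM the order was reversed, with the highest sum in CD11b+TAM_3 (Csf3r 76.2 FPKM) and the lowest in CD11b+TAM_2 (Csf3r 113 FPKM). Within F4/80+TAM the order of the libraries also differed from that of Csf3r. The part of the neutrophil markers was not tested. Sdc1, a syndecan reported to bind Il34, was lower from con to Ht (-1.97) and in F4/80+TAM against Mt2 tissue (-4.73). Il3, Il5, Il5ra and Ptprz1 did not pass the filter.

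Of 22 signal transducers downstream of the receptors, 11 were called higher from con to Lt and none lower, and 13 higher and 3 lower from con to Ht (all genes, 12.4% higher and 0.256% lower, then 25.8% and 24.1%). Dok1, an adaptor, and Inpp5d, a phosphatase of hematopoietic cells, had log2 fold changes of 4.56 and 3.01 from con to Ht. From Mt2 tissue to F4/80+TAM Dok1 had only 1.19, against 3.68 for Inpp5d. Stat3 (-1.18) and Stat5b (-1.30), which hepatocytes also express, were lower from con to Ht. Myeloid markers moved in the same samples, the summed level of the 12 macrophage markers from 280 to 434 FPKM in con to 771 to 994 in Lt and 1361 to 1386 in Ht. Of 8 monocyte markers 5 were called higher from con to Lt. From con to Ht 6 were higher and 1 lower, with a median log2 fold change of 4.13. Their summed level, to which abundant genes contribute most, was 393 to 425 FPKM in con, 399 to 420 in Lt and 174 to 194 in Ht. The part of these myeloid markers in the counts of the lists was not tested. From Mt2 tissue 16 of 22 were higher in each sorted population, beside 17.2% of all genes for F4/80+TAM and 17.6% for CD11b+TAM, and 1 was lower in CD11b+TAM (Sos1, -1.13). Examples of higher genes were Fes at 3.56 and Inpp5d at 3.68 in F4/80+TAM.

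Of 14 feedback and target genes, 5 were higher from con to Lt (all genes, 12.4%) and 8 higher and 1 lower from con to Ht (25.8% and 24.1%), with Socs1, an inhibitor of JAK signaling, at 4.08 and Bcl2a1b, an antiapoptotic gene with near-identical copies that can share reads, at 5.40. In F4/80+TAM against Mt2 tissue 8 were higher, led by Fos (7.77), Osm (7.61) and Pim1 (3.60), and 2 lower, Socs2 (-4.11) and Cish (-1.27), beside 17.2% and 25.2% of all genes. Fos is an immediate-early gene, which cell isolation is known to induce, and the part of isolation was not tested.

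Of 16 myeloid transcription factors, 4 were higher from con to Lt, beside 12.4% of all genes, and 7 higher and 3 lower from con to Ht, beside 25.8% and 24.1%. Spi1, which encodes PU.1, had log2 fold changes of 1.82 and 2.74 in these comparisons, and Runx1 of 3.19 and 4.93. Cebpa (-4.17) and Cebpe (-5.45) were lower from con to Ht, and Cebpa is also abundant in hepatocytes. In each sorted population 13 of 16 were higher than in Mt2 tissue, beside 17.2% of all genes for F4/80+TAM and 17.6% for CD11b+TAM, with Spi1 at 3.52 in F4/80+TAM.

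Over the 4 lists 60 of 64 genes were tested, of which 23 were higher and none lower from con to Lt, beside 12.4% and 0.256% of all genes tested. The count fell without con_2 and without Lt_2, as did the number of all genes called. From con to Ht 33 were higher and 8 lower, beside 25.8% and 24.1% of all genes. Under total-count scaling these were 46 and 2, beside 8819 and 2250 of the 17187 genes tested. In Ht against Lt 14 were higher and 7 lower, beside 11.7% and 20.2%. Under total-count scaling these were 30 and 4, while the share of higher genes among all calls went from 36.6% to 74.9%. The sum of 21 in the main fit fell without Lt_1, without the summed Ht_1 and Ht_3 or without Ht_2. In each of these edgeR fits, fewer of all genes tested also had an unadjusted p under 0.05. From Mt to Ht 0 were higher and 3 lower by edgeR, beside 1.5% and 13.4% of all genes, against 0 and 6 by DESeq2. Total-count scaling turned the balance to 14 higher and 2 lower, while the share of higher genes among all calls went from 10% to 59.3%. The 3 calls of the main fit were lost without either Ht sample, where fewer of all genes tested also had an unadjusted p under 0.05 by edgeR. More genes of the lists were called without Mt3_1, Mt1_2 or Mt2_2. Between the sorted populations none was called by edgeR and 3 by DESeq2, all lower in F4/80+TAM. Of all genes called by DESeq2 there, 44.3% were higher in F4/80+TAM. From Mt2 tissue 41 were higher and 5 lower in each sorted population, beside 17.2% and 25.2% of all genes for F4/80+TAM and 17.6% and 26.3% for CD11b+TAM. The lists were chosen with earlier results of these data known, and their medians stood at 1.14 from con to Lt and 1.39 from con to Ht on the log2 scale, beside 0.10 and 0.09 for all genes tested.

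**Figure D4:**
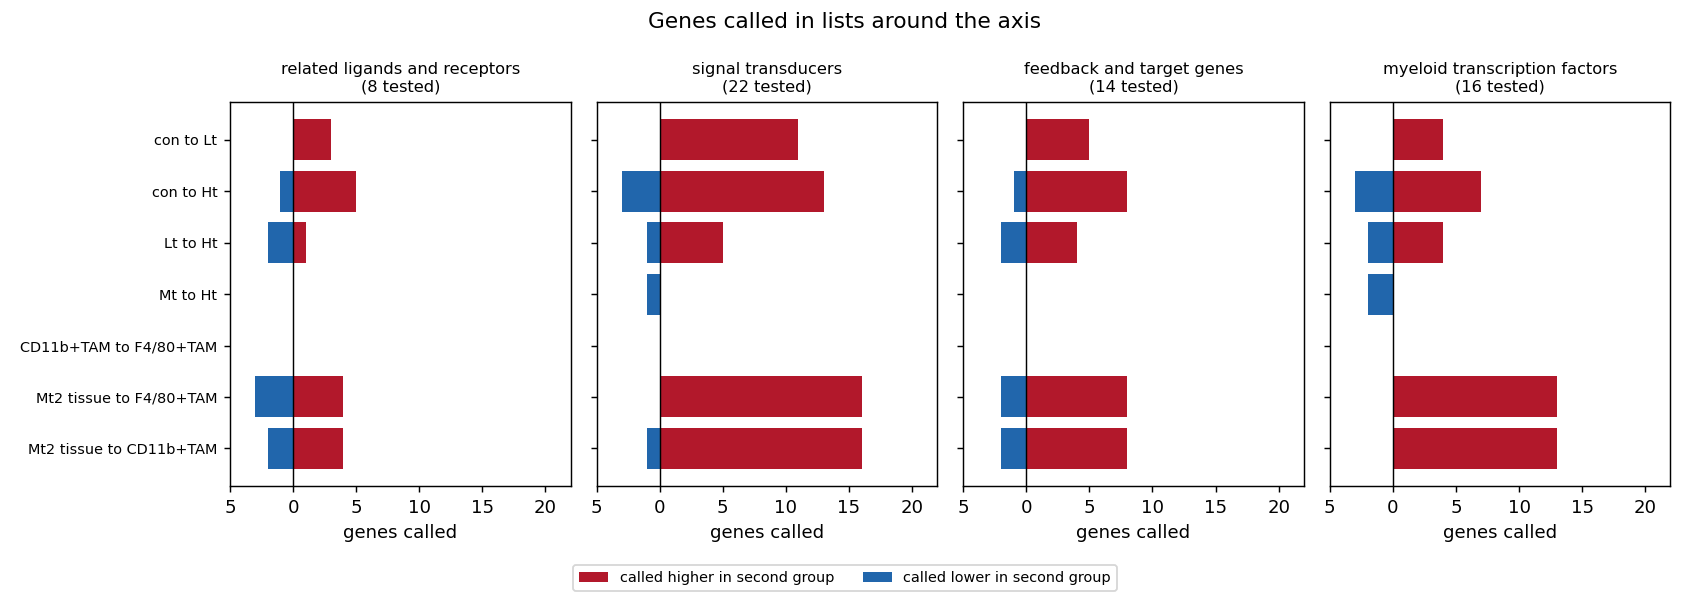
Number of genes called higher (red, right of 0) and lower (blue, left of 0) in the second group of each comparison for 4 lists of genes around the axis; the number tested stands in each title. Transducers and myeloid factors are called mostly higher in sorted cells than in Mt2 tissue, 16 of 22 and 13 of 16 in both populations, and edgeR calls none between the sorted populations.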

How the data were processed

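Bulk RNA-Sequencing counts of 14 tissue and 6 sorted-cell libraries were used. The authors deposited raw read counts per gene, unfiltered and not normalized; the submitters' processing notes name CASAVA, HISAT2 2.0.5, featureCounts 1.5.0-p3 and GRCm38. The strand setting is not given in the sources used here. The table of sorted cells was matched by gene identifier, since it holds no gene names. A total of 0 count columns were left unmapped.

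Groups came from the labels, and Ht_1 and Ht_3 were summed. Counts were scaled by TMM, filtered by filterByExpr and tested in R 4.3.3 with edgeR 4.0.16 (quasi-likelihood F test, two-sided, Benjamini-Hochberg over all genes tested) in 3 fits, 13 tissue samples in 7 groups, 6 sorted-cell libraries, and 19 samples in 9 groups. Standard errors were derived from the F statistic. FPKM used deposited gene lengths and the joint TMM factors. L-con, with 1 library, was not tested.

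Fits were tested on simulated data with 200 changed genes, drawn from those above a minimum mean count. Counts were simulated at the fitted dispersion, without the further gene-wise spread of the quasi-likelihood fit. Recovery of smaller changes, of weakly expressed genes or under that further spread was not tested. For con to Lt, over 16223 genes, 87% of changes of 2 on the log2 scale and 95% of changes of 3 were recovered, with 7 genes called wrongly. For the sorted populations, over 14032 genes, these were 97% and 99%, with 2. For Mt to Ht, over 16229 genes, they were 96% and 100%, with 12. For Mt2 tissue to F4/80+TAM, over 17055 genes, they were 93% and 99%, with 15.

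Alternatives were DESeq2 1.42.0, its size factors in edgeR, total-count scaling, other filters, no fold threshold, only the groups compared, Ht as 3 libraries or without Ht_3, Mt as 1 group, the replicate block and leaving out each library. Blocks with exchanged numbers were added after seeing the data. Named genes were the 7 members, per list and comparison up to 3 called genes of largest change in each direction without overlap of the groups, and the 3 genes most like each member among those with a mean of at least 1 on the log2(CPM + 1) scale. Members and lists were chosen with earlier results of these data known. Csf2rb2, Adgre1, Sdc1, Kitl and Spi1 were described for their role. Not every gene that this rule names is reported here. Figures were drawn in matplotlib 3.10.9.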

Additional observations from a re-analysis of the deposited data

Results flagged for a closer look

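The tumor-free liver of the 12 dpi mouse (L-con) entered no test, and 4 of the 5 tested genes lay above both con libraries there. Csf2 had 2 counts in L-con and 0 in con, below the floor of 3 counts. Csf1 was 2.98 FPKM, against 1.44 in both con libraries and 7.60 in the lowest Lt library. Csf1r was 44.2 FPKM, against 15.4 and 22.6 in con and 29.7 and 45.5 in Lt. Csf2ra was 5.14 FPKM, between con (2.67 and 3.12) and Lt (8.35 and 13.3), and Csf2rb was 3.35 FPKM, against 1.26 and 1.62 in con and 3.16 and 4.93 in Lt. The receptors Csf1r and Csf2rb thus stood within the range of Lt and Csf1 below it. The summed level of the 12 macrophage markers was 716 FPKM in L-con, 280 to 434 in con and 771 to 994 in Lt, and that of the 4 tumor genes was 7.10 FPKM. With 1 library there is no replicate check.

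Among the 6 Mt libraries, Csf3 in Mt1_2 stood apart from the others, at 0.281 FPKM (9 counts), with a gap to the next library of 0.823 of the whole range. The other Mt libraries had 0 or 1 count. This criterion marks about 1 in 20 groups by chance.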

How the results depend on the processing

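All figures here are numbers of genes called, then log2 fold changes. In edgeR with total-count scaling the median of all genes moved to 0.40 from con to Lt, 1.27 from con to Ht, 0.87 from Lt to Ht and 0.55 from Mt to Ht, and the share of calls that were higher went from 51.7% to 79.7% (con to Ht), 36.6% to 74.9% (Lt to Ht) and 10% to 59.3% (Mt to Ht). Under it 8297 genes were called from Lt to Ht (5480 in the main fit) with 4 members, 4358 from Mt to Ht (2563) with 2 members, and 6 between the sorted populations (11). With at least 10 counts in every library, which leaves fewer genes tested, 1154 genes were called from con to Lt (2177), 5 between the sorted populations, 3742 from Mt2 tissue to F4/80+TAM (7793) and 3870 to CD11b+TAM (8082). Without a fold threshold 3888 were called from Mt to Ht. Between the sorted populations DESeq2 called 300 genes and 1 member, and no filter called 242 and 1. Leaving out 1 library gave 735 to 2284 genes from con to Lt, 2786 to 5961 with 0 to 2 members from Lt to Ht, 0 to 3548 from Mt to Ht, and 0 to 136 with 0 to 1 member between the sorted populations.

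Directions that turned belonged to values that were not called. Csf2rb from Lt to Ht went from -0.003 to 0.10 (DESeq2), 0.10 (DESeq2 size factors in edgeR), 0.86 (total-count scaling), 0.079 (at least 10 counts), 0.12 (no filter), 0.024 (only the groups compared), 0.0074 (replicate block), 0.36 (without Lt_2) and 0.12 (without the summed Ht_1 and Ht_3; -0.28 to 0.36 over all libraries left out), and from Mt to Ht to 0.32 (total-count scaling). Il34 from con to Lt turned to -0.06 without con_2 and -0.15 without Lt_2 (-0.15 to 0.64 in all), and between the sorted populations to 0.089 (total-count scaling), 0.05 and 0.16 (without F4/80+TAM_2 or _3) and 0.16 (without CD11b+TAM_3; -0.30 to 0.16 in all). Csf2ra turned to -0.0032 without F4/80+TAM_2 (-0.0032 to 0.17 in all) and Csf2rb to 0.00089 without CD11b+TAM_2 (-0.24 to 0.00089 in all). Of 500 recomputed member log2 fold changes, 463 kept direction and side of the threshold. Of 70 recomputed mean FPKM levels of members, 26 moved beyond their spread, as Csf1 in Ht from 32.5 to 49.2 under total-count scaling. The cause was not tested.

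Same-numbered samples deviated together weakly or not at all (r from -0.27 to 0.105 across genes), so the numbers were not taken to pair samples. A block for the replicate number gave 2337 calls from con to Lt, 8603 from con to Ht, 5706 from Lt to Ht, 2835 from Mt to Ht, 78 between the sorted populations (11), and 7599 and 7743 from Mt2 tissue to F4/80+TAM and CD11b+TAM, and the number of members called was unchanged in all 7 comparisons. With the numbers exchanged, 1956 genes were called from con to Lt and 2919 from Mt to Ht. Depth limits Csf2 and Csf3, which stayed at or near the floor.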
